A study of Arabidopsis thaliana with 12 samples.

Results

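Seedlings of the *ddm1* mutant were set against Ws seedlings, with 3 arrays in each group, 6 of the 12 arrays in the series. The groups were found by their sample titles. The mutant carried 1 T-DNA insertion allele of *DDM1* in the Ws ecotype and had been backcrossed and then selfed over several generations, so that it stands for 1 allele in 1 background. The Ws seedlings carried no mutation. Both groups grew in liquid 0.5X MS medium with 1% sucrose at 21 °C in constant light and received the solvent DMSO alone by the treatment notes of the labels, although another label calls the Ws seedlings untreated. The sample labels give an age of 10 days, with the medium replaced at day 5, while the study's methods give a later harvest. The other arrays, 3 of Ws treated with 5-AC (a deoxycytidine analog that inhibits DNA methylation, 20 mg/L) and 3 of Ws treated with the histone deacetylase inhibitor trichostatin A (TSA, 2.5 mg/L), entered the fit and are given where the mutant was set against them. RNA came from whole seedlings, and in such samples fewer cells of a type and less RNA per cell cannot be told apart.

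DDM1 is a chromatin remodeling ATPase of the SWI2/SNF2 family that lets DNA methyltransferases reach DNA wrapped in nucleosomes. Plants without it lose DNA methylation progressively over generations of selfing, mainly in the heterochromatin around the centromeres, where most transposable elements lie. Transposable element genes are the open reading frames of such elements, and in wild-type plants most of them are silent. Some ordinary genes, such as *FWA* and *QQS*, carry repeats in or near their promoters and are silenced by the same methylation.

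Of the 22746 probe sets described (control probe sets were left out), those that passed a filter on low values were tested, and 269 (1.56%) differed between *ddm1* and Ws at an adjusted p under 0.05 by limma. Of these, 232 had higher levels in *ddm1* seedlings (1.35%) and 37 had lower ones (0.215%). The 5542 probe sets not tested had low values in the series, and their changes lay between -1.73 and 1.24. All values are log2 expression levels computed by the authors with gcRMA, so that a difference of 1 is a factor of 2, and each level refers to its own probe set. The arrays of the mutant and of Ws did not overlap in any of the 269 called probe sets, against 6.49% of all tested that lay higher and 10.8% that lay lower without overlap. The increases were large, with a median of 3.08 and a range of 0.56 to 8.99, and 37 of the 232 were over 6. The decreases were smaller, with a median of -1.02, and 4 of the 37 were over 2 in size. Array medians lay between 4.92 and 5.03 in the whole series, and no batch is named in the labels. The methods' t-test, adjusted in the same way, called 35 higher (0.203%) and 0 lower (0.0%), with 35 in either direction.

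**Figure D1:**
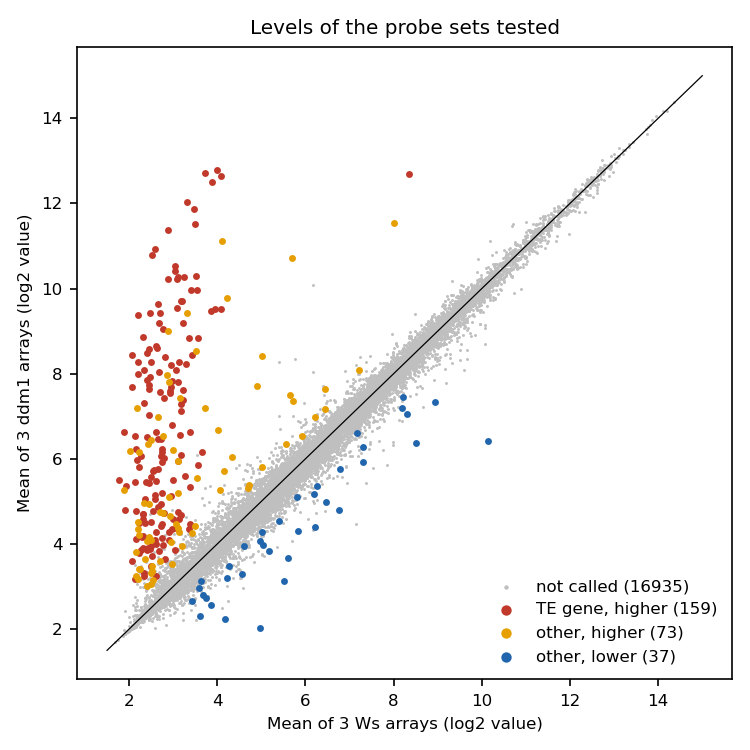
Mean log2 value of the 3 *ddm1* arrays (vertical axis) against the mean of the 3 Ws arrays (horizontal axis) for the probe sets tested, with the line of equal levels. The called transposable element (TE) genes form a column above the low end of the Ws axis, and the 37 lower probe sets lie below the line, by up to 3.73.

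Transposable element genes made up most of the increases. Of the 927 probe sets for such genes, 159 were higher in *ddm1* than in Ws (17.2%, against 1.02% of all probe sets described) and 0 were lower. A probe set without a name in the platform's table could enter the 927 only through the study's tables of changed genes. These shares are therefore descriptions and do not compare like with like. Only 353 of the 927 were tested, and a silent gene could pass the filter through the mutant arrays alone, so the share of those tested is not given as evidence. The other 574 had changes of -0.19 to 0.76. Over all 927 the median change was -0.02, so that most transposable element genes on the array had changes close to 0. Levels of the 159 had a median of 6.24 in *ddm1*, 4.37 after 5-AC, 2.70 after TSA and 2.72 in Ws. In Ws 61 of the 159 were near the floor of the signal, that is, below the 25th percentile of each array. Of the 927, 555 were near the floor on all Ws arrays and had little room to fall. The count of 0 lower ones therefore does not show that changes go 1 way only. The increases of the 159 had a median of 3.74, and 34 of them were over 6.

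The largest of these increases came from probe sets that were bright in the mutant and of uneven level in Ws. AT2G12240 had 12.71, 12.67 and 12.73 on the *ddm1* arrays, against 2.14, 6.02 and 2.98 on the Ws arrays. The mutant arrays nearly coincided, and Ws replicate 2 stood far above the other Ws arrays. AT2G13160 had 12.14, 12.02 and 11.94 in *ddm1* and 2.85, 4.76 and 2.32 in Ws, with the same Ws array highest. AT2G12980, by contrast, had 10.74, 10.81 and 10.79 in *ddm1* and 2.39, 2.81 and 2.38 in Ws (change 8.25, SE 0.16, adjusted p = 2.2e-10). Both groups were tight there, and the distance between them was many times the spread. Ws replicate 2 was the highest Ws array for 52 of the 159 genes (32.7%) and for 31.7% of all probe sets tested. The other Ws arrays were less even. Replicate 1 was highest for 85 of the 159 (53.5%, against 35.0% of all tested) and replicate 3 for 22 (13.8%, against 33.3%). Without Ws replicate 2, 149 transposable element genes were called, and 148 of the 159 were called whichever of the 6 arrays was left out.

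AT2G04460 stood apart from the other transposable element genes in that it was already well expressed in Ws. It had 12.56, 12.83 and 12.68 in *ddm1*, against 7.32, 8.91 and 8.82 in Ws (change 4.34, SE 0.70, adjusted p = 0.0059). The Ws arrays of this gene lay above the Ws mean of any other of the 927, of which 921 had a Ws mean under 5. The 5 with a Ws mean between 5 and 7 had changes of -0.26 to 0.29 and none was called.

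**Figure D2:**
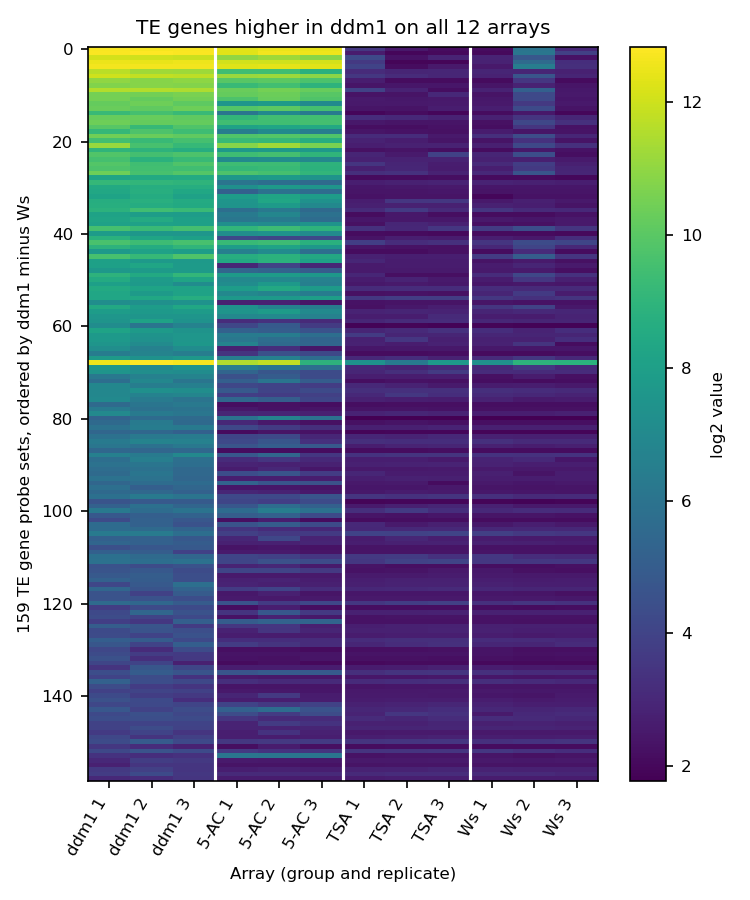
Log2 values of the 159 transposable element (TE) genes higher in *ddm1*, 1 row per probe set ordered by the change from Ws, in the 12 arrays (columns, by group and replicate). The *ddm1* columns are brighter than the Ws columns in every row, the 5-AC columns are bright at the top and mostly dim toward the bottom, and the TSA and Ws columns are dim except for the top of Ws replicate 2 and the row of AT2G04460, which is bright throughout.

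The raised transposable element genes lay mostly in pericentromeric heterochromatin, taken here as windows of locus codes around each centromere. In these windows 138 of 748 probe sets for transposable element genes were higher in *ddm1* (18.4%), and on the arms 20 of 177 were (11.3%). By chromosome, 28 of 177 were higher on chromosome 1 (15.8%), 59 of 279 on chromosome 2 (21.1%), 33 of 195 on chromosome 3 (16.9%), 25 of 169 on chromosome 4 (14.8%) and 13 of 105 on chromosome 5 (12.4%). Of the 20 on the arms, 10 were within 200 genes of the edge of a window. These included a run of 5 on chromosome 3, from 28 to 36 genes past the edge. AT3G47320, the brightest of the run in the mutant, had 11.67, 11.24 and 11.21 in *ddm1* and 2.93, 2.92 and 2.80 in Ws (change 8.49, SE 0.19, adjusted p = 3.2e-10). The others were AT3G47260 (7.37), AT3G47330 (5.61), AT3G47270 (5.25) and AT3G47310 (2.28). Farther out on the arms, AT4G28960 rose by 4.85, AT2G26630 by 3.40 and AT5G44880 by 0.85.

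Part of this signal cannot be credited to single loci, since transposable elements are repeated. Probe sets that match several sequences gave 86 increases among 190 for transposable element genes (45.3%), and probe sets for a single sequence gave 73 among 737 (9.91%). When probe sets for a single sequence alone were tested, the same 73 were called.

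**Figure D3:**
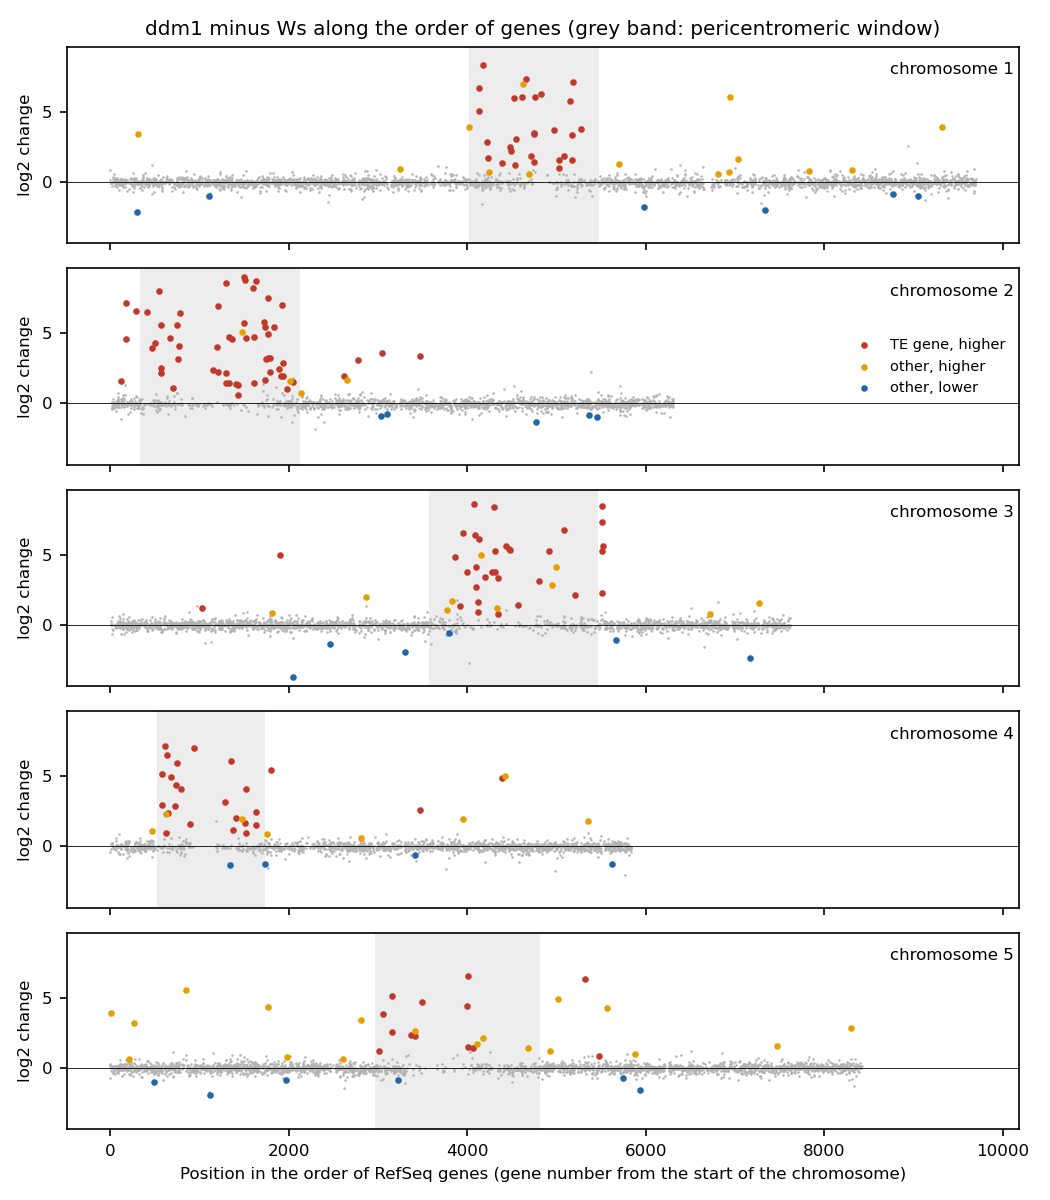
Log2 change between *ddm1* and Ws (vertical axis) of each tested probe set with 1 gene, placed by the order of genes along the 5 chromosomes (horizontal axis, gene number), with the pericentromeric windows in grey. Increases of transposable element (TE) genes crowd into the windows, with the run of 5 past the window on chromosome 3, while the decreases are scattered along the chromosomes.

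Most of the transposable element genes raised in *ddm1* also stood above their Ws level after 5-AC, while after TSA their median level stayed near it. Against the same Ws arrays the 159 genes had a median change of 3.74 in *ddm1*, 1.69 after 5-AC and 0.03 after TSA, and the 5-AC change was under 0.5 in size in 54 of them. The 3 comparisons share the Ws arrays. Compared directly, 122 of the 159 were higher in *ddm1* than after 5-AC and 5 were lower, against 25.7% and 30.8% of all probe sets tested. All 159 were higher in *ddm1* than after TSA, against 9.29% of all tested. These contrasts use the *ddm1* arrays on which the 159 were called, so they describe the genes and are no independent test of them. Some genes raised in the mutant stayed close to their Ws level after 5-AC, and the examples here were chosen after their values were seen. AT4G04270 had 7.18, 7.34 and 7.42 in *ddm1*, 2.39 to 2.80 after 5-AC and 2.38, 2.30 and 2.31 in Ws (*ddm1* minus 5-AC 4.66, adjusted p = 2.5e-09). AT3G32110 had 5.48, 5.42 and 5.47 in *ddm1*, 2.12 to 2.15 after 5-AC and 2.14, 2.13 and 2.13 in Ws. AT1G45090 had 5.62, 6.05 and 6.24 in *ddm1*, 2.16 to 2.28 after 5-AC and 2.18, 2.17 and 2.18 in Ws. In these 3 genes the 5-AC levels lay at or just above those of Ws, while each mutant array lay more than 3 units higher than each Ws array. AT4G03970 went the other way, with 3.40, 3.24 and 3.33 in *ddm1*, 6.08 to 6.12 after 5-AC and 2.39, 2.28 and 2.36 in Ws (*ddm1* minus 5-AC -2.77, adjusted p = 1.2e-08). The other 4 that were lower in *ddm1* than after 5-AC were AT1G43230 (-1.03), AT1G34740 (-0.82, whose call against Ws was lost with the replicate number as a block, adjusted p = 0.0501), AT1G42360 (-0.66) and AT3G33066 (-0.62).

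Genes of other kinds gave 73 of the increases. They were 53 probe sets for protein-coding genes, 1 for a pseudogene, 6 that match several genes and 13 with no gene named here. The protein-coding ones were 0.375% of the 14118 described, and 47 of the 53 were probe sets for a single sequence. In the pericentromeric windows 17 of 1555 described were higher (1.09%), and on the arms 36 of 12563 were (0.287%). Of the 53 genes, 13 lay next to a transposable element gene in the order of genes (24.5%, against 6.73% of 13960 protein-coding genes described). Within the windows this held for 11 of 17 (64.7%, against 36.0% of 1541) and on the arms for 2 of 36 (5.56%, against 3.1% of 12419). A neighbouring transposable element gene that was itself called higher was found for 1 of the 53 (1.89%, against 0.33% of 13960). This was AT5G28560, which lies next to AT5G28570. A neighbour without a probe set could not be counted here. These shares are descriptions with no test, and some of the genes have a name only through the study's tables of changed genes.

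The largest increase outside transposable element genes was in AT1G36240, described in the study's tables as a gene for ribosomal protein L30 of the large subunit. It had 11.32, 10.94 and 11.10 in *ddm1*, against 3.45, 5.25 and 3.65 in Ws (change 7.01, SE 0.40, adjusted p = 5.9e-07). Every mutant array lay over 5 units above every Ws array, and Ws replicate 2 was again the highest of its group. It lies in the window of chromosome 1 next to the transposable element gene AT1G36250. AT5G07570 had 9.56, 10.06 and 9.68 in *ddm1* and 4.35, 5.4 and 2.89 in Ws (change 5.56), and its Ws arrays were widely spread. AT1G59930 rose by 6.09, on a probe set that matches several sequences, and AT5G41660 by 4.91, and both are described as unknown proteins.

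A pair of probe sets for genes described as beta-galactosidases, enzymes that release galactose from cell wall and other polymers, rose in the mutant. AT4G29200 had 7.30, 7.21 and 7.06 in *ddm1*, against 2.16, 2.34 and 2.06 in Ws (change 5.00), and AT5G01080 had 6.4, 6.4 and 6.48 in *ddm1*, against 2.42, 2.42 and 2.62 in Ws (change 3.94). Both were near the floor on all Ws arrays, and the probe set of AT5G01080 is also assigned to AT1G30784 in the study's tables. AT5G45570, described as a member of the Ulp1 family of proteases, rose by 4.28. AT5G15690 rose by 4.33, but its probe set is also assigned to a transposable element gene, AT1G33450, in the study's tables. AT3G44070, with 6.52, 6.04 and 5.99 in *ddm1* and 2.01, 2.05 and 1.99 in Ws (change 4.17), rose in the mutant while its change after 5-AC was 0.07. The pseudogene, AT2G12050, rose by 5.10 on a probe set that matches several loci. It was the 1 called of 75 pseudogene probe sets described, of which 24 were tested. The share of those described was 1.33%, against 1.02% of all probe sets described that were called higher.

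Genes known as targets of silencing by methylation were measured in few cases. Of the 13 on the list 5 were measured, and 2 of these were higher in *ddm1*, against 1.02% of all probe sets described. Only 3 of the 5 were tested. *FWA*, near the floor in Ws, passed the filter through the *ddm1* and 5-AC arrays, so the share of those tested is not given as evidence. *FWA* also has a name here only through the study's tables of changed genes. The count of 2 among 5 measured therefore does not compare like with like. *QQS*, a small gene that affects starch content, had 8.67, 8.53 and 8.38 in *ddm1*, against 3.11, 4.36 and 3.11 in Ws. The groups lay over 4 units apart, and the gene had 8.07 to 8.44 after 5-AC and 3.12 to 3.19 after TSA. *FWA*, a homeodomain gene that delays flowering when active outside the endosperm, had 3.98, 4.31 and 4.31 in *ddm1* and 2.24, 2.17 and 2.24 in Ws, a tight but small step from the floor. After 5-AC *FWA* had 6.85 to 7.94, and it was lower in *ddm1* than after 5-AC by a log2 difference of -3.24 (adjusted p = 7.9e-07). The transposon gene *CACTA1* had a change of -0.11 and was not called.

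Several genes with a known role in development or metabolism rose by less. *SQN*, the cyclophilin 40 gene that supports microRNA function through ARGONAUTE1, had 7.45, 7.09 and 7.53 in *ddm1* and 5.67, 5.83 and 5.68 in Ws (change 1.63, SE 0.17, adjusted p = 1.4e-04), and it lies next to the transposable element gene AT2G15800. Its levels were 5.38 to 5.81 after 5-AC and 5.31 to 5.76 after TSA, so that the mutant alone stood above Ws. *2A6*, which encodes a protein of the 2-oxoglutarate-dependent dioxygenase superfamily, behaved likewise. It had 8.54, 8.49 and 8.23 in *ddm1*, against 4.78, 5.48 and 4.78 in Ws (change 3.40), and 4.87 to 5.25 after 5-AC. *IRX3*, a cellulose synthase of the secondary wall, rose by 0.79, *CLE26*, a signalling peptide gene, by 0.82, and *NAKR1*, a phloem metal-binding protein gene, by 0.62. *NAKR1* was not called when any single array of the 6 was left out. *E1 ALPHA*, a subunit of pyruvate dehydrogenase, rose by 0.68 and lost its call with the replicate number as a block (adjusted p = 0.069), as did the peroxidase gene AT4G36430 (change 1.83, adjusted p = 0.058 with the block). *E1 ALPHA* was also not called when any single array was left out, *IRX3* not without *ddm1* replicate 3 (0.71, adjusted p = 0.062) or Ws replicate 1 (0.77, adjusted p = 0.050), while AT4G36430 was called without Ws replicate 3 but not without any other array.

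A pair of probe sets for germin-like proteins, which are secreted into the cell wall, was called higher in the mutant. *GLP6* had 4.93, 4.61 and 3.83 in *ddm1*, 8.92 to 9.36 after 5-AC and 3.05, 3.1 and 3.05 in Ws (change 1.39, SE 0.24, adjusted p = 0.010). The mutant arrays of *GLP6* were spread over more than 1 unit, and without *ddm1* replicate 2 the call was lost (1.31, adjusted p = 0.061). A probe set shared by AT5G39110, AT5G39120, AT5G39150 and AT5G39180 rose by 2.18.

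**Figure D4:**
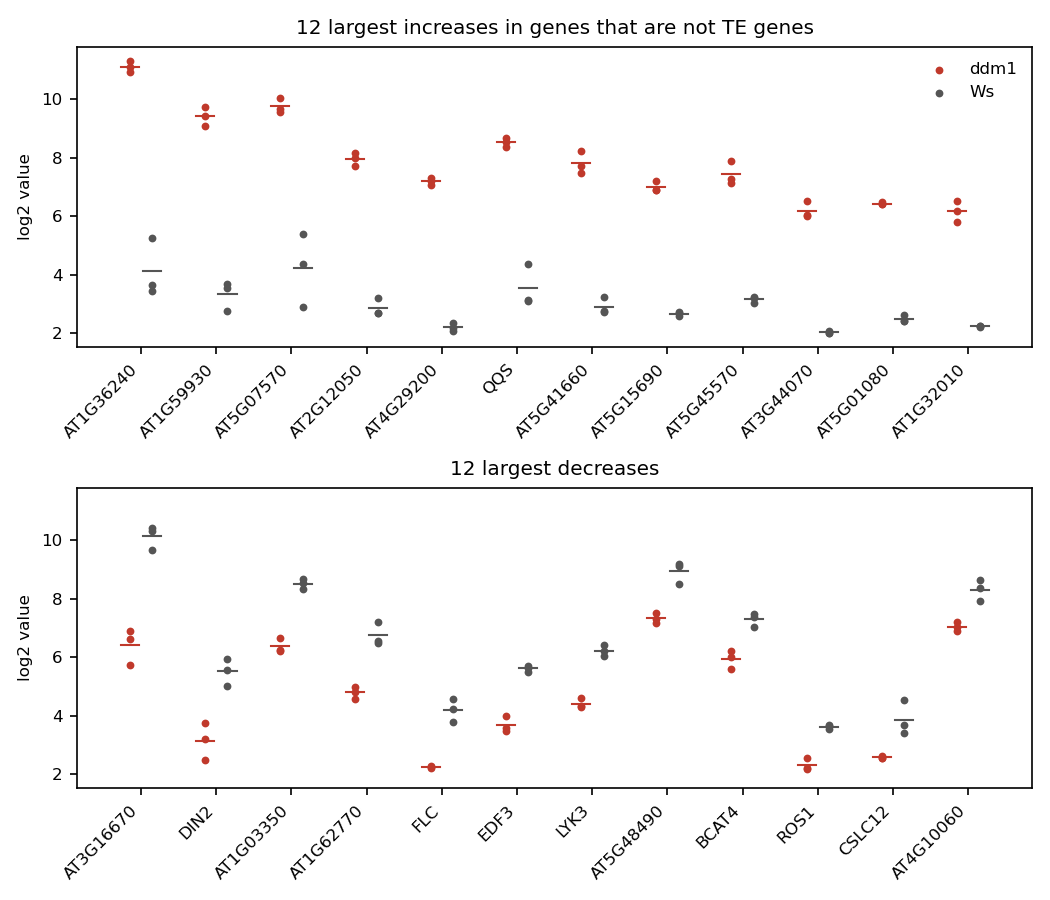
Log2 values of each *ddm1* array (red, left) and each Ws array (grey, right), with horizontal lines at the means, for the 12 largest increases in genes that are not transposable element (TE) genes and the 12 largest decreases, among called probe sets with 1 named gene. No pair of groups overlaps, and for *FLC*, *ROS1* and *CSLC12* the mutant arrays lie near the floor of the signal.

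No transposable element gene was among the decreases, but 555 of the 927 were near the floor on all Ws arrays and had little room to fall. Of the 37 lower probe sets 27 had 1 protein-coding gene, 4 matched several genes and 6 had no gene named here. The 27 were 24 of 9838 tested on the arms (0.244%) and 3 of 940 tested in the windows (0.319%), so that their place followed that of the genes tested. In all, 18 of the 37 kept their call whichever of the 6 arrays was left out, and 20 to 49 were called with 1 array left out. The deepest was AT3G16670, described as an unknown protein, with 6.62, 5.72 and 6.88 in *ddm1* and 10.31, 9.67 and 10.42 in Ws (change -3.73, SE 0.51, adjusted p = 0.0016). AT1G03350 had 6.64, 6.20 and 6.25 in *ddm1*, against 8.54, 8.32 and 8.66 in Ws (change -2.14). AT1G62770, described as an inhibitor of invertase or pectin methylesterase, had 4.81, 4.58 and 4.98 in *ddm1* and 7.22, 6.54 and 6.5 in Ws (change -1.96). AT5G48490, of the lipid transfer protein family, fell by 1.61, and AT4G38410, a putative dehydrin, by 1.26, with its call lost without *ddm1* replicate 2, *ddm1* replicate 3 or Ws replicate 1 (-1.26 to -1.17). *DIN2*, a beta-glucosidase gene induced by darkness and sugar starvation, had 3.21, 2.46 and 3.75 in *ddm1* and 5.94, 5.58 and 5.02 in Ws (change -2.37). The 5 other tested genes of that list had changes of -0.46 to 0.43 and none was called.

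Flowering regulators were among the lowered genes. *FLC*, the MADS-box repressor of flowering, had 2.2, 2.24 and 2.26 in *ddm1*, against 4.22, 4.55 and 3.79 in Ws (change -1.95, SE 0.26, adjusted p = 0.0014). The mutant arrays were at the floor of the signal, so the size of the decrease may be understated. *FLC* had 7.16 to 7.90 after 5-AC and 5.99 to 6.83 after TSA, and was lower in *ddm1* than in either, by log2 differences of -5.22 (adjusted p = 8.7e-08) and -4.25 (adjusted p = 1.0e-06). *EDF3*, an AP2 domain factor related to the TEMPRANILLO repressors of flowering, had 3.57, 3.45 and 4.0 in *ddm1* and 5.51, 5.70 and 5.64 in Ws (change -1.94). *MAF1*, a relative of *FLC*, had 3.21, 2.85 and 2.51 in *ddm1* and 3.32, 3.95 and 3.83 in Ws, which did not pass the test (adjusted p = 0.20). Of the 6 tested genes of the list 2 were lower and 0 were higher, against 0.215% and 1.35% of all probe sets tested. A name for 5 of the 6 came only from the study's tables of changed genes, so these shares do not compare like with like.

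Among genes that act on chromatin and DNA methylation, *ROS1* and *CLF* were lower in *ddm1* and *DDM1* itself was higher. *ROS1*, the DNA glycosylase that removes methylated cytosine, had 2.17, 2.55 and 2.19 in *ddm1*, against 3.52, 3.66 and 3.66 in Ws (change -1.31, SE 0.16, adjusted p = 5.6e-04), and the mutant arrays were near the floor. It had 2.07 to 2.19 after 5-AC and 2.2 to 2.71 after TSA. The related glycosylase gene *DME* had changes of -0.02 and -0.01 on its probe sets. In the silencing list 1 of 5 tested genes was called, *DDM1* itself, with 7.91, 7.63 and 7.59 in *ddm1* and 4.83, 4.64 and 5.21 in Ws. The files do not place the probes before or after the T-DNA, so this increase does not check the label of the mutant. In Ws seedlings, which carried no mutation, *DDM1* was also higher after 5-AC (change 2.38, adjusted p = 1.6e-06 by limma). Its change from Ws was 2.82 in *ddm1* and 0.43 after TSA (adjusted p = 0.15 for TSA). *MET1*, the maintenance methyltransferase gene, had 6.27, 6.35 and 6.26 in *ddm1* and 5.70, 6.18 and 6.15 in Ws (change 0.28, adjusted p = 0.99), and *SUVH4* (0.45), *ATXR5* (-0.16) and *NRPD1* (-0.68) were not called in *ddm1* either. *CLF*, the Polycomb methyltransferase gene that keeps floral genes and *FLC* repressed, had 4.25, 4.27 and 3.72 in *ddm1* and 5.12, 4.95 and 4.81 in Ws (change -0.88, adjusted p = 0.022). Its call was lost without *ddm1* replicate 3 (-0.70, adjusted p = 0.070), Ws replicate 1 (-0.80) or Ws replicate 2 (-0.89). *FLC*, *EDF3*, *ROS1*, *CLF*, *DIN2*, *LYK3*, *FWA* and *DDM1* have a name here only through the study's tables of genes changed by 5-AC on arrays compared with the same Ws arrays.

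In the aliphatic glucosinolate pathway, which makes sulfur-rich defence compounds from methionine, 1 of 5 tested genes was lower, against 0.215% of all probe sets tested. A name for 3 of the 5 came only from the study's tables of changed genes, so these shares do not compare like with like. *BCAT4*, the aminotransferase that starts methionine chain elongation, had 6.0, 6.21 and 5.60 in *ddm1* and 7.38, 7.05 and 7.49 in Ws (change -1.37, SE 0.28, adjusted p = 0.032). It was not called when any single array of the 6 was left out, and with the replicate number as a block its adjusted p was 0.0501. *MAM3*, the synthase of the next step, had 7.86, 7.35 and 8.16 in *ddm1* and 8.79, 8.87 and 9.92 in Ws (change -1.41, adjusted p = 0.088), and with the block it passed the test (adjusted p = 0.012). The changes of *UGT74C1*, *SUR1* and the regulator *MYB28* were -0.83, -0.28 and -0.06. The list median was -0.83, against -0.03 over all probe sets tested.

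*LYK3*, a LysM receptor-like kinase gene, had 4.59, 4.33 and 4.30 in *ddm1* and 6.04, 6.22 and 6.41 in Ws (change -1.81). *CSLC12*, a cellulose synthase-like gene, fell by 1.29, AT1G75990, described as the proteasome subunit RPN3, by 1.02, and the pyruvate decarboxylase pair AT5G01320/AT5G01330 by 1.01. The pair AT3G44860/AT3G44870, the first of which is the farnesoic acid methyltransferase gene *FAMT*, fell by 1.47 and *ENDO3*, an endonuclease gene, by 0.63, and both lost their calls with the block (adjusted p = 0.092 and 0.059). AT4G10060 fell by 1.26, AT3G48410 by 1.08, AT5G04790 by 1.02, AT1G09440 and the pair AT3G53640/AT1G13350 by 1.01, AT2G41650 by 1.00 and AT5G27730 by 0.89. AT1G73780 fell by 0.87, AT2G41080 by 0.80 and AT2G23940 by 0.76. Of these, *CSLC12*, the pair AT3G44860/AT3G44870, *ENDO3*, AT3G48410, AT5G04790, AT5G27730, AT1G73780 and AT2G41080 each lost the call without certain single arrays, 3 to 5 of the 6 in turn. The remaining 4 with names, AT5G17270 (-0.84), AT5G46920 (-0.70), AT3G28950 (-0.58) and the pair AT3G60040/AT3G60050 (-0.51), lost their calls with the block (adjusted p = 0.053 to 0.086). AT5G17270, AT5G46920 and AT3G28950 were also not called when any single array of the 6 was left out. With 1 array left out, the pair AT3G60040/AT3G60050 was called only without Ws replicate 1.

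The lists for stress and growth held few calls. All 13 salicylic acid and defence genes and all 13 DNA damage genes measured have a name only through the study's tables of changed genes. Among 13 tested genes of salicylic acid signalling and defence *LYK3* was lower and 0 were higher, against 0.215% and 1.35% of all probe sets tested. *PR5*, a pathogenesis-related protein gene, had 6.59, 5.16 and 6.54 in *ddm1* and 2.67, 2.79 and 5.16 in Ws (adjusted p = 0.31), where Ws replicate 3 stood just below the lowest mutant array. *PR2* had 5.64, 4.39 and 5.93 in *ddm1* and 2.75, 2.56 and 5.84 in Ws, with the same Ws array high. None of 13 DNA damage genes was called, and the largest change was that of *CYCB1;1* (0.72, adjusted p = 0.28), with 6.45, 6.14 and 6.01 in *ddm1* and 5.32, 5.39 and 5.73 in Ws. The repair genes *BRCA1*, *DMC1* and *MSH4*, which the study's text names, had changes of 0.29, 0.19 and -0.04. All 9 cell division genes tested had positive changes, from 0.17 for *CDKB2;2* to 0.58 for *CYCA1;1* (list median 0.32), and none was called, while 44.2% of all probe sets tested had a positive change. Lists for jasmonate response (4 tested), DNA replication (4), nuclear photosynthesis (3), flavonoid synthesis (3), senescence (5), the circadian clock (2) and heat shock proteins (2) had 0 calls. Of the photosynthesis genes, *LHCB2.4* had a change of -1.36 (adjusted p = 0.42) and *LHCB4.1* one of 0.03.

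Markers of organs other than leaves did not separate the groups. All 10 root markers and 3 flower and pollen markers tested were uncalled, with changes of -0.42 to 0.46 and -0.03 to 0.30. Root marker levels ran from those of *PYK10*, at 12.33 to 12.77 in *ddm1* and 12.36 to 12.85 in Ws, down to those of *NRT2.1*, at 2.66 to 3.11 in *ddm1* and 2.69 to 2.72 in Ws, and the floral genes *AG* and *SEP2* were at or below 2.67 on every array of both groups. The 69 plastid and 20 mitochondrial probe sets tested also had 0 calls, with medians of -0.13 and -0.06. Of 7 housekeeping genes 0 were called, and their changes ran from -0.08 to 0.24.

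**Figure D5:**
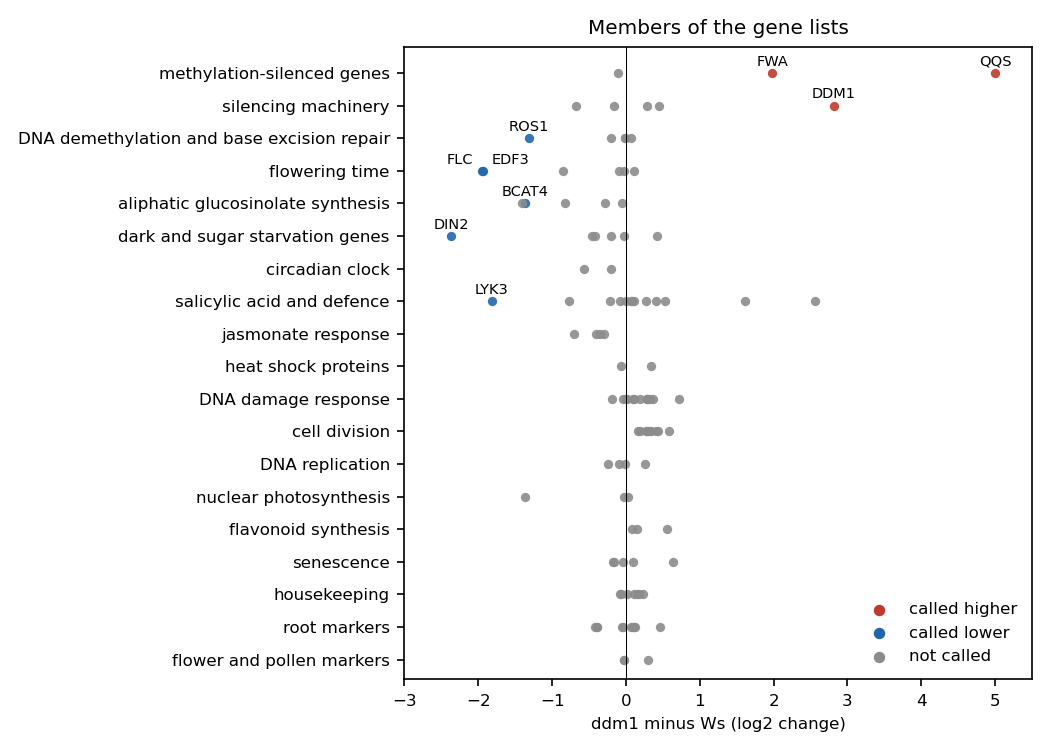
Log2 change between *ddm1* and Ws of each tested member of the gene lists, 1 row per list, with called members named. The 9 called members lie at or beyond 1.3 in size, and the members of most lists cluster around 0.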

How the data were processed

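RNA was hybridised to Affymetrix ATH1 arrays, 1 per sample. The authors computed the deposited log2 values with gcRMA 2.2.0 in Bioconductor 1.7 (background adjusted by probe sequence, quantile normalization between arrays, 1 log2 value per probe set). Values of probe sets near the background depend on that adjustment, and quantile normalization brings all arrays to nearly 1 distribution. Depth does not apply to arrays, and their number limits the precision. The methods call the replicates biological, without saying what was separate between them, and the p-values measure the spread between these samples.

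Probe sets were ranked by their second-highest value in the series and the first 17204 entered the tests, since the methods keep that number by present calls, which were not used here. Linear models (1 coefficient per group, all 12 arrays) were fitted with limma 3.58.1 in R 4.3.3 (lmFit, eBayes), with two-sided tests, Benjamini-Hochberg adjustment and a threshold of 0.05. The fit was tested on simulated data. SE is the standard error of the log2 change. Deviations of same-numbered *ddm1* and Ws arrays from their group means had r = 0.41, 0.52 and 0.23, against -0.44 to -0.01 for other pairs. Such deviations cancel within each group, so positive values for same-numbered pairs partly force negative ones elsewhere. The replicate numbers of the labels may therefore pair the samples. The main fit does not use this pairing, and its counts, SEs and adjusted p-values leave it out. The fit with the replicate number as a block is an alternative.

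Genes were named by the platform's table (13513 probe sets with 1 gene, 503 with several) or else the study's supplementary tables (1711 and 66), and 6953 had none. Transposable element genes were those of RefSeq type pseudogene, which holds 44 of 45 loci that the study's tables describe as transposable elements and 0 of 3687 others, and genes of RefSeq type transcribed pseudogene were called pseudogenes. The windows ran from AT1G32000 to AT1G48000, AT2G03500 to AT2G16600, AT3G27500 to AT3G47000, AT4G03400 to AT4G10050 and AT5G25700 to AT5G40100. Named genes were drawn from the study's text, the 10 highest and 10 lowest called changes with 1 gene and the 10 highest outside transposable element genes. They were also drawn from all lower named probe sets and the 4 members per list with the largest changes in size. Not every gene under these rules is given. Others were named after their values were seen. The members and lists were chosen with earlier results of these data known. Seed markers had no named probe set.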

Additional observations from a re-analysis of the deposited data

How the results depend on the processing

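With a stricter filter (12000 probe sets) 157 probe sets were called, 138 higher and 19 lower, of which 99 were for transposable element genes, and the median change of all transposable element genes tested was 4.98. By the methods' t-test 35 were called, 35 higher and 0 lower, with 27 transposable element genes and 0 list members (33 of the 232 higher and 0 of the 37 lower were called there). With probe sets for a single sequence alone 150 were called, 124 higher, with 73 transposable element genes, and the median change of all those tested was 0.0327. Without a filter that median was -0.0244, against 0.63, since it follows from which silent genes are kept. Leaving out 1 array gave 228 to 265 calls, 203 to 235 higher and 20 (without *ddm1* replicate 3) to 49 (without Ws replicate 3) lower, with 149 to 160 transposable element genes, and 21 lower without *ddm1* replicate 2 and 24 without *ddm1* replicate 1. With only the 6 *ddm1* and Ws arrays in the fit 213 were called, 185 higher and 28 lower, with 139 transposable element genes. There 12 of the 73 named probe sets lost their call. With arrays centred on housekeeping genes (median change over all features then -0.11) 214 were higher and 48 lower. With the replicate block 266 were called, 227 higher and 39 lower, and 8 higher and 8 lower calls were lost while 3 higher and 10 lower ones were gained. Beside those given, the block changed no other call among the named genes. Of 1144 values of 73 named probe sets over the alternatives, 1002 kept their direction and side of the threshold. In 136 the call was lost, 45 of them with the methods' t-test, and in 2 a call was gained. The other 4 turned, in *DFR* (0.55, with -0.36 without *ddm1* replicate 2 and -0.21 without Ws replicate 1, from -0.36 to 1.23 with 1 array left out) and *SEN5* (-0.46, with 0.18 and 0.32, from -0.92 to 0.32), neither of them called. The causes were not tested beyond what each alternative changes by construction.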
